A study of Mus musculus with 4 samples.

Results

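The genes described here are 10 genes of DNA replication, Mcm2, Mcm3, Mcm4, Mcm5, Mcm6, Mcm7, Cdc45, Cdc6, Pcna and Rrm2, which were chosen by name. All 10 were found among the 16375 genes of the deposited table. They were read in bone marrow-derived macrophages, which are macrophages grown from mouse bone marrow cells in M-CSF, the growth factor of this lineage. The cells came from wild-type mice (WT) and from mice in which the long noncoding RNA *lncLy6c* had been deleted by CRISPR (LNCKO). In each genotype 1 culture received 500 µM butyrate, a short-chain fatty acid made by gut bacteria, and 1 control culture received none, and RNA was taken after 24 h. This gave 4 groups of 1 RNA library each, called WT control and WT butyrate for the wild type, and LNCKO control and LNCKO butyrate for the deletion. Values below follow this order of libraries where they are given in a row. The study asked whether the response of macrophages to butyrate depends on *lncLy6c*.

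Before a cell copies its DNA, Cdc6 and its partners load a ring of Mcm2, Mcm3, Mcm4, Mcm5, Mcm6 and Mcm7 onto each origin, which is called licensing. Cdc45 and the GINS complex then turn the ring into the active helicase that opens the double strand, Pcna forms the clamp that holds the polymerases on the template, and Rrm2 is the small subunit of ribonucleotide reductase, which makes the deoxynucleotides. Genes of this group are known targets of the E2F transcription factors, and their RNA is abundant in cells that enter S phase, such as bone marrow progenitors that still divide in response to M-CSF.

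The promoters are shown first, because genes of this group are known E2F targets and letters of the E2F site can be searched for in them. RefSeq promoters of the GRCm38.p6 build, from 250 bases before to 50 bases after the start of transcription, were matched to 9 of the 10 genes, all but Mcm4. The letters TTTGGCGC, TTTCGCGC, TTTCCCGC and TTTGCCGC, forms of the E2F site, were searched on both strands, and matches that overlap each other were each counted. A match was found in 5 of the 10 promoters of these genes, namely those of Mcm3, Mcm5, Mcm6 and Cdc6 and 1 of the 2 promoters of Mcm7, and in 2.26% of all 32851 promoters of this length. The windows of Mcm5 (chr8:75109331-75109392, + strand) and Mcm6 (chr1:128359720-128359840, − strand) lie upstream of the start and hold 2 and 3 matches. They are printed 5′ to 3′ on the strand of the gene with the E2F letters in capitals, and in both genes a match on one strand overlaps a match on the other.
Mcm5: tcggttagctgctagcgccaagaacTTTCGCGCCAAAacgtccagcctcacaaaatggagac
Mcm6: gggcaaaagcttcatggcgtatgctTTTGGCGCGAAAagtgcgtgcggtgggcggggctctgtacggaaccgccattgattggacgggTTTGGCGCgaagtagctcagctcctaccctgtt

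The promoters of Mcm2, Cdc45, Pcna and Rrm2 held none of these E2F letters. Mcm2 and Rrm2 lay at opposite ends of the members in the butyrate response of WT described further on, and their windows from 100 to 26 bases before the start are shown for that reason, from chr6:88898806-88898880 on the − strand for Mcm2 and chr12:24708154-24708228 on the + strand for Rrm2. Capitals mark the GC box GGGCGG, the box CCAAT and the element TTTGAA, known as the cell cycle homology region, again on both strands.
Mcm2: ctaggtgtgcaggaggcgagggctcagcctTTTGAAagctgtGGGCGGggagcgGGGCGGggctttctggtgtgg
Rrm2: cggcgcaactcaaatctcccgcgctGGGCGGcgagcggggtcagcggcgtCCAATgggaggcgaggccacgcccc

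Over the whole promoter length, CCAAT was found in 9 of the 10 promoters against 37.4% of all promoters, GGGCGG in 8 against 35.7%, and TTTGAA in 2, those of Mcm2 and Cdc45, against 17.9%. A match describes the letters of the window and not a site in use.

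The files hold FPKM values, that is fragments per kilobase of gene per 1000000 fragments, in which the length is the whole genomic span of the gene with its introns. They allow comparison across libraries but not across genes. Library totals recovered from the values ranged from 53363944 to 65521713 fragments, and each member could be converted to a whole number of fragments, from 1684 to 11120. The interval given with each value is a 95% Clopper-Pearson interval and covers counting error only. As each group holds 1 library, differences lack a replicate check and none was tested. In bulk RNA, fewer cells of a type and less RNA per cell cannot be told apart. The labelled macrophages carried all 8 macrophage markers of the list at a mean FPKM of 1 or more, with a summed FPKM between 561 and 590. Markers of granulocytes summed to between 2240 and 3086, those of B cells to between 167 and 228 and those of mast cells and basophils to between 33.8 and 70.2. The sums stayed between 7.10 and 8.39 for progenitor markers, 11.1 and 16.1 for T and NK cells, 6.50 and 8.95 for dendritic cells and 2.69 and 10.6 for stromal cells. Only 1 of the 6 T and NK cell markers and 1 of the 5 dendritic cell markers had a mean FPKM of 1 or more. Each of these genes held most of the sum of its list. Erythroid markers summed to 6.10 and 6.80 in the WT libraries and to 22.7 and 64.7 in the LNCKO libraries, with Klf1 at 0 in LNCKO butyrate. Y-linked genes summed to at most 0.136 in the WT libraries and at least 10.3 in the LNCKO libraries, so genotype and the sex of the donors cannot be told apart. The table has no row named lncLy6c, so the deletion was not checked here, and each statement on LNCKO depends on the sample titles, since the library names do not spell the genotype.

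The subunits of the Mcm ring were read first. Mcm2 (ENSMUSG00000002870, chr6:88883474-88898780, − strand) had an FPKM of 5.70 in the control and 6.52 in the butyrate library of WT, and 6.49 and 5.78 in those of LNCKO. WT butyrate and LNCKO control were the high libraries, and the counting intervals of WT control, from 5.54 to 5.86, and LNCKO butyrate, from 5.63 to 5.93, overlapped below them. Mcm6 (ENSMUSG00000026355, chr1:128331590-128359664, − strand) stood at 6.02, 6.39, 6.73 and 6.05 FPKM in the same order of libraries. LNCKO control was highest and WT butyrate second, with WT control and LNCKO butyrate close together below. Mcm3 (ENSMUSG00000041859, chr1:20802968-20820312, − strand) stood at 8.17, 8.49, 8.86 and 8.05 FPKM, and Mcm7 (ENSMUSG00000029730, chr5:138164583-138172422, − strand) at 13.6, 14.3, 14.9 and 13.8. Both had the order of Mcm6 in their upper libraries, with LNCKO control first and WT butyrate second, although Mcm3 was level between the WT libraries after rescaling to 1000000. With libraries scaled by their median ratio, WT butyrate was first for Mcm3, Mcm6 and Mcm7. The exons of Mcm7 share 321 bases with Ap4m1 and 64 bases with Cops6 on the opposite strand and hold the microRNA genes Mir25 and Mir93, and whether the counting used the strand is not given in the sources used here.

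Mcm4 and Mcm5 had other orders of libraries. Mcm4 (ENSMUSG00000022673, chr16:15623897-15637400, − strand) had an FPKM of 8.01 in the control and 7.90 in the butyrate library of WT, and 8.74 and 8.37 in those of LNCKO. Both LNCKO libraries lay above both WT libraries. Mcm5 (ENSMUSG00000005410, chr8:75109569-75128439, + strand) stood at 6.47, 6.02, 7.08 and 6.20 FPKM in that order. Each control library lay above the butyrate library of its genotype. Summed over the 6 subunits, the ring took 735 fragments per 1000000 in the control and 759 in the butyrate library of WT, and 811 and 736 in those of LNCKO. The FPKM of Mcm2 relative to that of Mcm5 was 0.881, 1.08, 0.917 and 0.932 in the same order, so that it was highest in WT butyrate among the 4 libraries.

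The loader, the helicase partner, the clamp and the reductase subunit followed. Cdc6 (ENSMUSG00000017499, chr11:98907801-98923940, + strand) had an FPKM of 2.11 in the control and 2.14 in the butyrate library of WT, and 2.37 and 2.10 in those of LNCKO. LNCKO control stood above the 3 other libraries, whose counting intervals overlapped. Cdc45 (ENSMUSG00000000028, chr16:18780447-18811987, − strand), the least covered member with 1684 to 2277 fragments, stood at 1.02, 0.902, 1.13 and 1.10 FPKM. WT butyrate was the low library, and both LNCKO libraries were the high ones. Its exons share 209 bases with Ufd1 on the opposite strand. Pcna (ENSMUSG00000027342, chr2:132249162-132253314, − strand) stood at 37.5, 34.7, 40.0 and 38.4 FPKM, and Rrm2 (ENSMUSG00000020649, chr12:24708241-24714146, + strand) at 22.2, 18.2, 23.3 and 22.2. WT butyrate was lowest for both, and for Rrm2 the 3 other libraries lay close together above it. The FPKM of Rrm2 relative to that of Mcm2 was 3.90 in the control and 2.79 in the butyrate library of WT, and 3.59 and 3.84 in those of LNCKO. Pcna and Rrm2 are known to have processed copies elsewhere in the genome, and how reads shared with them were counted is not given in the sources used here.

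**Figure D1:**
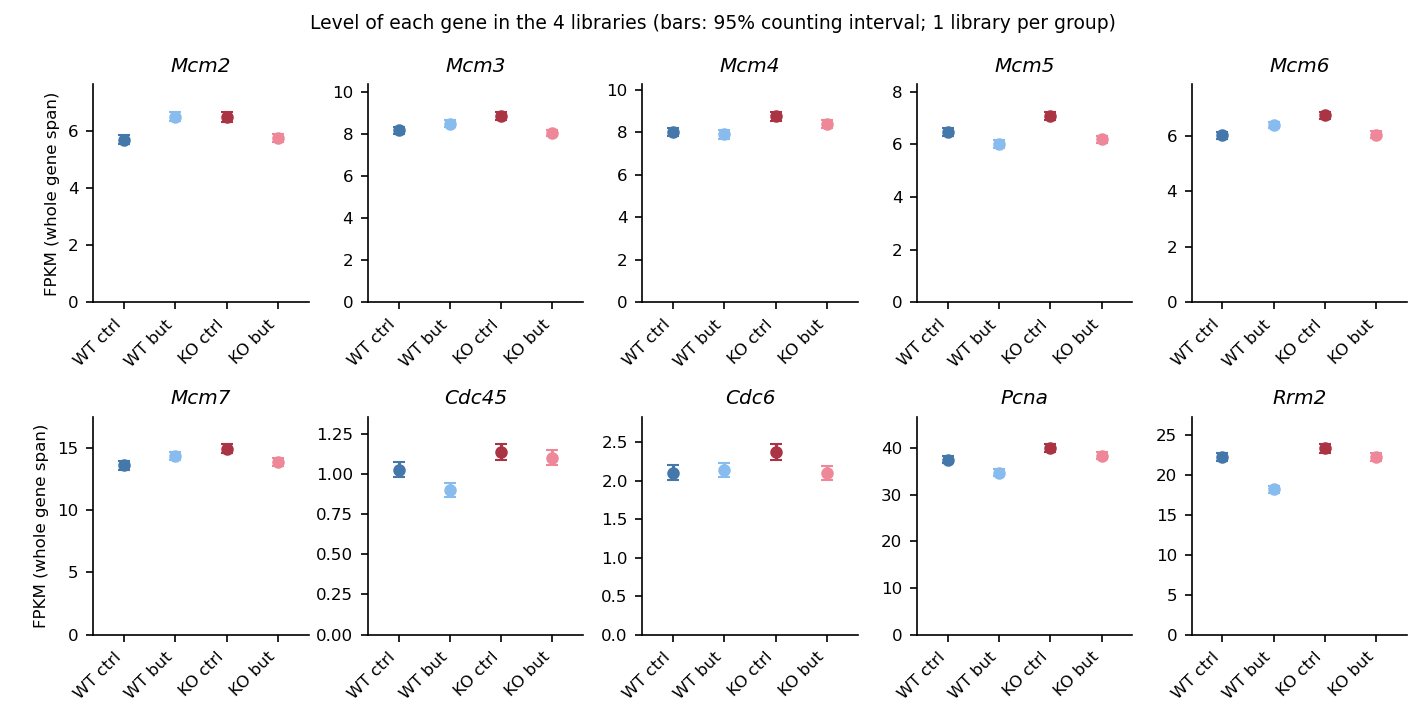
FPKM of each gene (y axis, from 0, on the whole gene span) in the 4 libraries (x axis, ctrl for control, but for butyrate, KO for LNCKO), 1 point per library with its 95% counting interval. LNCKO control is the highest library for 9 of the 10 genes. For Mcm2 the intervals of WT butyrate and LNCKO control overlap, with WT butyrate higher as deposited and LNCKO control higher after rescaling to 1000000. WT butyrate is the lowest for 5, namely Cdc45, Pcna, Rrm2, Mcm4 and Mcm5. With libraries scaled by their median ratio, WT butyrate is above LNCKO control for Mcm3, Mcm6 and Mcm7 too. Under that scaling Mcm4 is higher in WT butyrate than in WT control, and Mcm5 higher than in LNCKO butyrate.

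Levels were compared between members per length of exon. Pcna had the highest level in each of the 4 libraries, with 64.9 fragments per 1000000 per kb of exon in WT control, followed there by Rrm2 with 47.4. Within the ring, Mcm3 was highest with 37.8 and Mcm2 lowest with 12.5, a ratio of 3.01, and Mcm6 (36.2), Mcm5 (30.6), Mcm4 (30.1) and Mcm7 (24.1) lay between. Cdc45 and Cdc6 were the lowest members, with 9.22 and 6.50. The order within the ring rests on the exons counted. Per length of the longest coding transcript, Mcm6 was highest with 58.0 and Mcm2 lowest with 25.9 in WT control, a ratio of 2.24. The spread of the 6 subunits, as a coefficient of variation per length of exon, was between 31.4% and 32.3% in the 4 libraries.

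**Figure D2:**
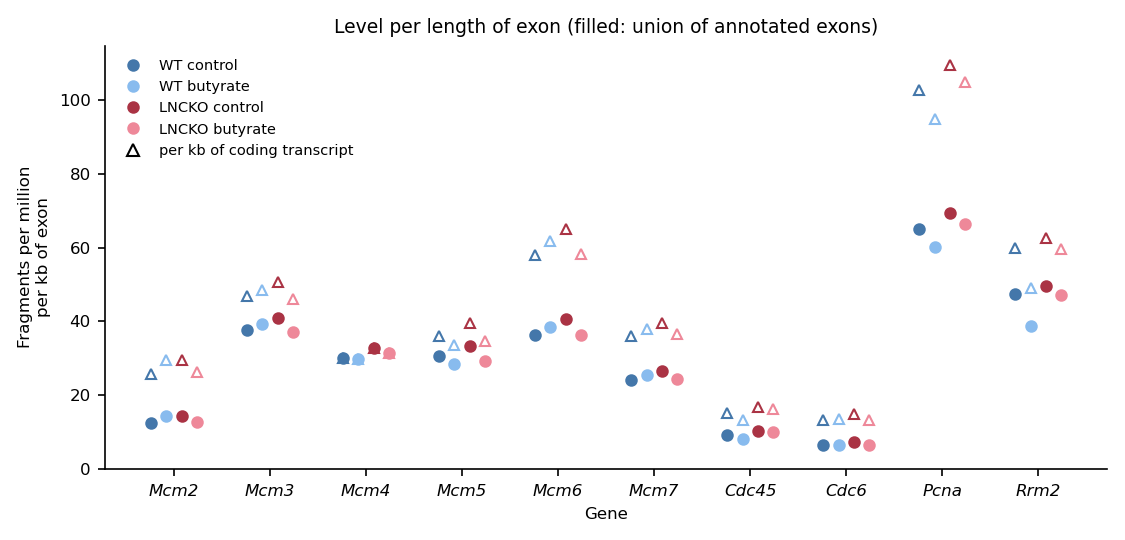
Fragments per 1000000 fragments per kb of exon (y axis, from 0) of each gene (x axis) in the 4 libraries, with circles for the union of annotated exons and triangles for the longest coding transcript. Pcna is highest under both lengths in all 4 libraries, Cdc45 and Cdc6 are the lowest pair, and the circles of Mcm4 and Mcm5 lie at like heights.

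In WT macrophages the members split with butyrate. Of the 10 members 5 were higher with butyrate, where 36.9% of the 6809 genes at a mean FPKM of 1 or more were higher at any size. With libraries scaled by their median ratio, 6 members and 50.6% of genes were higher. On the log2 scale of FPKM + 1, used for all changes named log2 here, the median of the members was -0.00 and that of all 6809 genes -0.04. A change of at least 0.32 on that scale was counted as large. No member reached it, while 2.95% of genes did upward and 2.85% downward. Mcm2 had the highest FPKM ratio of butyrate to control, 1.14 with an interval from 1.10 to 1.19, and ranked 632 of 6809 genes by its log2 change. The ratio was 1.06 for Mcm6 (1.03 to 1.09) and 1.06 for Mcm7 (1.02 to 1.09). Their log2 changes were 0.07 and 0.07 as deposited, and 0.03 and 0.02 with FPKM rescaled to 1000000 per library. Mcm3 had a ratio of 1.04 (1.01 to 1.07) and was no longer higher when FPKM values were rescaled to 1000000 per library. Cdc6 had a ratio of 1.01 (0.953 to 1.08) and a log2 change of 0.01 that turned to -0.03 with the same rescaling.

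The other members were lower with butyrate in WT. Rrm2 had the lowest ratio, 0.818 with an interval from 0.791 to 0.846, a log2 change of -0.28 and rank 6494 of 6809. With FPKM rescaled to 1000000 per library its log2 change was -0.34, past the limit of 0.32. Cdc45 had a ratio of 0.880 (0.824 to 0.941), Pcna of 0.924 (0.897 to 0.952) and Mcm5 of 0.930 (0.899 to 0.962). Mcm4 had a ratio of 0.986 (0.952 to 1.02), and its log2 change of -0.02 turned to 0.03 with libraries scaled by their median ratio. Markers of B cells and their precursors, which divide in bone marrow, moved in the same comparison. Of the 12 B cell markers 6 had a mean FPKM of 1 or more, all 6 of these were lower with butyrate, their median log2 change was -0.40. The summed FPKM of the list was 221 in WT control and 167 in WT butyrate, with none of the 12 at 0. The granulocyte markers were split, with 7 of 10 higher, 3 of them past the limit, and 3 lower, 2 of them past it, and summed to 2668 in WT control and 3086 in WT butyrate. Mast cell and basophil markers summed to 45.3 and 33.8. Progenitor markers summed to 7.10 and 8.09, and the 3 of 6 at a mean FPKM of 1 or more were all higher, none past the limit. The part of these lists in the values of the members was not tested.

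In LNCKO macrophages all members were lower with butyrate. None of the 10 was higher, where 42.2% of genes were, and the median log2 change was -0.11 against -0.01 over all genes, whose quartiles were -0.06 and 0.04. No member changed by 0.32 or more, as 1.01% of genes did upward and 0.455% downward. Mcm5 had the lowest ratio, 0.876 (0.848 to 0.905), and ranked 6573 of 6809. The ratio was 0.885 (0.833 to 0.940) for Cdc6, 0.890 (0.857 to 0.923) for Mcm2 and 0.898 (0.874 to 0.923) for Mcm6. It was 0.908 (0.881 to 0.935) for Mcm3 and 0.926 (0.895 to 0.958) for Mcm7. The ratios of these ring subunits and of the loader thus ran from 0.876 to 0.926. The ratio was nearer 1 for Rrm2 with 0.952, Mcm4 with 0.957 and Pcna with 0.958, all with intervals below 1, and for Cdc45 with 0.971 (0.914 to 1.03), whose interval holds 1. Here the summed B cell markers were 227 without and 228 with butyrate. The summed erythroid markers were 22.7 and 64.7, and the 3 of 7 at a mean FPKM of 1 or more were all higher with butyrate. The granulocyte markers summed to 2327 and 2240, with 3 of 10 higher, and the stromal markers to 2.69 and 5.57, with both tested genes higher past the limit. The progenitor markers summed to 8.39 and 7.83, with all 3 tested genes lower. The part of these lists in the values of the members was not tested.

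Without butyrate all members were higher in LNCKO than in WT. This comparison uses the LNCKO control library that the butyrate comparison in LNCKO also uses, so a high value in that library enters both, and the values are given side by side only. All 10 members were higher, where 56.7% of genes were, and their median log2 difference was 0.11 against 0.01 over all genes. No member differed by 0.32 or more, as 1.23% of genes did upward and 0.984% downward. The highest ratios of LNCKO to WT were 1.14 (1.10 to 1.18) for Mcm2, which ranked 457 of 6809, 1.13 (1.06 to 1.20) for Cdc6 and 1.12 (1.09 to 1.15) for Mcm6. The ratio was 1.11 for Cdc45, 1.10 for Mcm7, 1.09 for both Mcm5 and Mcm4, and 1.08 for Mcm3. The lowest were 1.07 (1.04 to 1.10) for Pcna and 1.05 (1.01 to 1.08) for Rrm2. Beside these values, the summed macrophage markers were 573 in WT control and 561 in LNCKO control, and the summed progenitor markers 7.10 and 8.39. Other lists differed more between these libraries. The sums were 6.10 and 22.7 for erythroid markers, 10.6 and 2.69 for stromal markers, 45.3 and 70.2 for mast cell and basophil markers, whose 3 tested genes were all higher in LNCKO, and 2668 and 2327 for granulocyte markers. The granulocyte markers were split, with 4 of 10 higher in LNCKO and 6 lower, 1 of them past the limit. The part of all these lists in the values of the members was not tested.

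Under butyrate the genotypes differed in both directions. This comparison uses the WT butyrate library that the butyrate comparison in WT also uses, so a high or low value there enters both. Here 5 of 10 members were higher in LNCKO, where 64.2% of genes were, and 4 members and 50.4% of genes with libraries scaled by their median ratio. The median log2 difference was 0.01 against 0.04 over all genes, and no member differed by 0.32 or more, as 3.82% of genes did upward and 2.48% downward. Cdc45 and Rrm2 had the highest ratios, 1.22 (1.15 to 1.30) and 1.22 (1.18 to 1.26). With FPKM rescaled to 1000000 per library the log2 difference of Rrm2 was 0.33, past the limit, against 0.27 as deposited. Pcna had a ratio of 1.11 (1.07 to 1.14) and Mcm4 of 1.06 (1.02 to 1.10). Mcm5 had a ratio of 1.03 (0.997 to 1.06), and its log2 difference of 0.04 turned to -0.01 with libraries scaled by their median ratio. Mcm2 was lowest with 0.885 (0.854 to 0.918), followed by Mcm6 with 0.946, Mcm3 with 0.948 and Mcm7 with 0.964, whose intervals lay below 1. Cdc6 had a ratio of 0.982 (0.925 to 1.04), and its log2 difference of -0.02 turned to 0.02 after rescaling to 1000000. In this comparison all 6 tested B cell markers were higher in LNCKO, with a median of 0.43. The summed markers in WT butyrate and LNCKO butyrate were 6.80 and 64.7 for the erythroid list, with 3 of 3 tested genes higher past the limit, 33.8 and 69.4 for mast cells and basophils, also with 3 of 3, and 3086 and 2240 for granulocytes, with 6 of 10 lower past the limit. Progenitor markers summed to 8.09 and 7.83, with 1 of the 3 tested genes higher and 2 lower. The part of these lists in the values of the members was not tested.

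**Figure D3:**
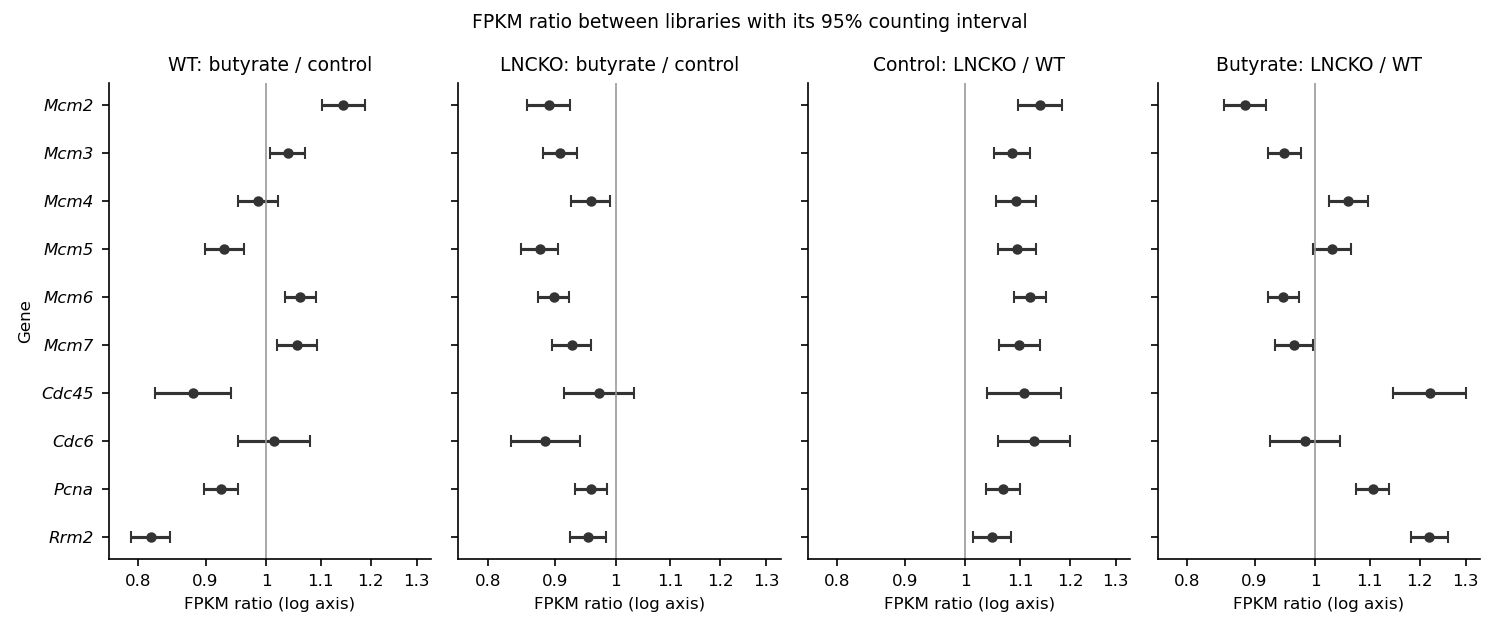
FPKM ratio (x axis, log scale) of each gene (y axis) in the 4 comparisons, with 95% counting intervals and a grey line at 1. All 10 points lie below 1 for butyrate in LNCKO and above 1 for LNCKO against WT in control cultures, which share the LNCKO control library. The points of both other panels, which share the WT butyrate library, fall on either side of 1, from 0.818 to 1.14 in WT and from 0.885 to 1.22 under butyrate.

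The butyrate change in WT minus that in LNCKO was above 0 for the ring subunits and Cdc6 and below 0 for the other members. Its median over Mcm2, Mcm3, Mcm4, Mcm5, Mcm6 and Mcm7 was 0.17 on the log2 scale, with all 6 above 0, against -0.03 over all genes. The share of genes above 0 was 41.2% without the added 1. With libraries scaled by their median ratio it was 50.6%, and all 6 subunits were above 0 there too. Mcm2 had the highest value, 0.31, and ranked 257 of 6809. Mcm6 had 0.21, Mcm7 0.18, Mcm3 0.17, Cdc6 0.14, Mcm5 0.08 and Mcm4 0.04. Pcna with -0.05, Cdc45 with -0.07 and Rrm2 with -0.21 were below 0, Rrm2 at rank 6050. The order rests in part on the added 1. Without it, Cdc6 had 0.1973, above Mcm3 with 0.1944 and Mcm7 with 0.1886, and Cdc45 had -0.1418. Mcm2, Mcm3, Mcm6 and Mcm7 were higher with butyrate in WT and lower in LNCKO, with both counting intervals clear of 1 as deposited. Of the 6718 tested genes with whole fragments, 6.16% had this pattern. After rescaling to 1000000, Mcm3 in WT was not higher. On that scale the log2 change in WT was 0.14 for Mcm2, 0.03 for Mcm6 and 0.02 for Mcm7. The counting intervals were not recomputed for it, so how many of these members keep the pattern there is not given. The difference between the genotypes was not tested, since each change rests on 1 library against 1.

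The other genes of replication were read from 8 lists of 80 genes, of which 56 had a mean FPKM of 1 or more. With butyrate in WT, 15 of the 56 were higher and 41 lower, with a median log2 change of -0.08, and 2 were past the limit of 0.32, both lower. In LNCKO the counts were 13 higher and 43 lower, the median was -0.04 and none was past the limit. LNCKO exceeded WT in 45 of the 56 without butyrate, with a median of 0.06 and 1 past the limit, and in 46 under butyrate, with a median of 0.09 and 2 past it. Of all 6809 genes, 36.9%, 42.2%, 56.7% and 64.2% were higher in these 4 comparisons. The same shares stand beside the counts of the single lists and of the mitosis genes below. With libraries scaled by their median ratio, the genes higher numbered 22, 18, 38 and 37 of the 56 in these 4 comparisons, and the medians, -0.04, -0.03, 0.04 and 0.04, kept their direction. With FPKM rescaled to 1000000, the numbers were 8, 10, 45 and 49, and the medians -0.16, -0.08, 0.08 and 0.16. Adding 1 to FPKM makes the changes of genes at low FPKM smaller than their plain ratios. With butyrate in WT, Rrm2b had a plain ratio of 0.677 and a log2 change of -0.29. Pold2 had a plain ratio of 1.30 and a log2 change of 0.29. Neither was counted as past the limit, and the counts for these lists were not repeated without the added 1. Origin recognition and licensing partners had 2 of 5 higher with butyrate in WT and 2 of 5 in LNCKO. Cdt1, which loads the ring together with Cdc6, had an FPKM of 7.94, 9.19, 8.29 and 8.26. It was thus highest in WT butyrate. Mcm2 was also highest there as deposited, but not after rescaling to 1000000. The related Mcm8 and Mcm9 both had a mean FPKM under 1 and were not among the 56. Mcm8 stood at 0.305, 0.291, 0.311 and 0.256 FPKM and Mcm9 at 0.294, 0.198, 0.351 and 0.307. The plain ratio of butyrate to control in WT was 0.955 for Mcm8 and 0.672 for Mcm9.

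The helicase activation and GINS list had 2 of 8 higher with butyrate in WT and 1 of 8 in LNCKO, and all 8 higher in LNCKO without butyrate. Its most abundant gene Topbp1, which helps to bring Cdc45 and GINS to the ring, stood at 3.08, 2.94, 3.15 and 2.97 FPKM. Of the polymerase and primase genes 3 of 7 were higher with butyrate in WT and 1 of 7 in LNCKO, and Pold4, a small subunit of polymerase delta, stood at 31.0, 30.3, 30.0 and 30.2 FPKM. The list of clamp loaders and clamp partners, which act with Pcna, had 1 of 11 higher with butyrate in WT and 1 of 11 in LNCKO. Fen1, the flap nuclease that trims Okazaki fragments, had an FPKM of 10.6, 11.9, 14.2 and 13.2, and Rfc3, a subunit of the clamp loader, of 2.58, 2.15, 3.22 and 3.19. Both were higher in each LNCKO library than in each WT library. Of the genes of single-strand binding and fork protection 2 of 5 were higher with butyrate in WT and 1 of 5 in LNCKO, and Rpa3, a subunit of the single-strand binding protein, stood at 4.54, 4.36, 4.76 and 4.23 FPKM. Nucleotide supply, the list to which Rrm2 belongs by role, had 2 of 8 higher with butyrate in WT and 3 of 8 in LNCKO, and Samhd1, which breaks deoxynucleotides down, stood at 42.0, 41.7, 40.8 and 43.3 FPKM.

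The regulators of S phase included the E2F genes themselves. In this list 3 of 12 genes were higher with butyrate in WT and 4 of 12 in LNCKO. E2f2, an activating E2F, had an FPKM of 5.59 in the control and 4.21 in the butyrate library of WT, and 5.18 and 5.21 in those of LNCKO. Ccna2, the cyclin of S phase and the start of mitosis, stood at 16.3, 12.2, 17.5 and 16.1. WT butyrate was the low library for both, as for Rrm2, with log2 changes of -0.34 and -0.40 in WT. E2f1, also an activating E2F, went the other way, with 2.39, 2.67, 2.48 and 2.39 FPKM and a log2 change of 0.12 in WT. A list of 12 genes of mitosis was set beside the members because its RNA peaks later in the cycle. All 12 were lower with butyrate in WT, with a median log2 change of -0.26, and Cdc20 (-0.54), Ccnb2 (-0.53) and Plk1 (-0.36) were past the limit. In LNCKO 11 of 12 were lower, or 10 with libraries scaled by their median ratio, with a median of -0.07. Under butyrate all 12 were higher in LNCKO than in WT, or 11 with that scaling, with a median of 0.24, and Ccnb1, the main mitotic cyclin, was among the 5 past the limit with 0.38. This comparison and the one in WT share the WT butyrate library, so its low values enter both. Cdc20, an activator of the anaphase-promoting complex, stood at 10.7, 7.02, 11.4 and 10.8 FPKM, while Mcm2 was high in WT butyrate and LNCKO control. The median butyrate change of the 6 ring subunits in WT was 0.06, or 0.01 after rescaling to 1000000 and 0.11 with libraries scaled by their median ratio. The B cell markers were also lower in WT butyrate, as given above. With butyrate in LNCKO, 3 of the 6 tested B cell markers were higher and 3 lower, with a median of 0.00. Their part in the values of the mitosis genes was not tested.

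**Figure D4:**
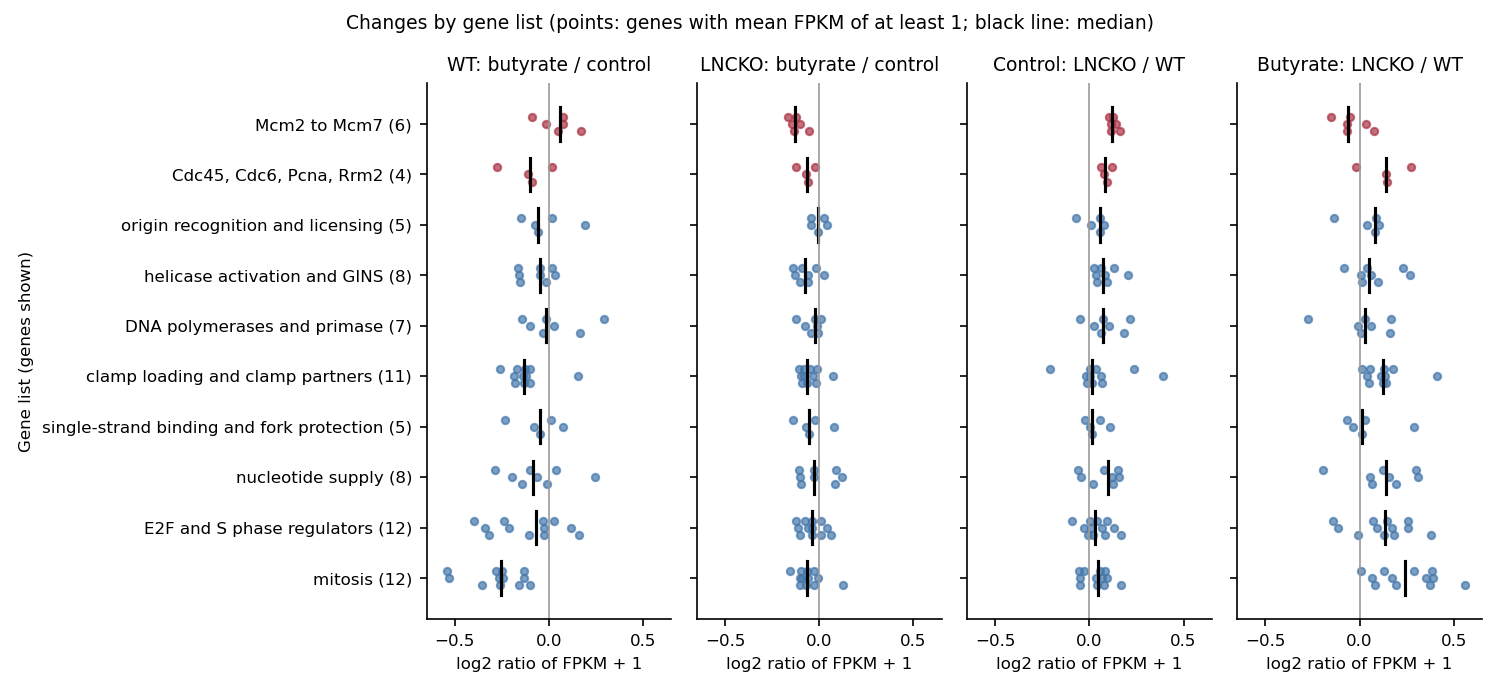
Log2 ratio of FPKM + 1 (x axis) for the genes of each list at a mean FPKM of 1 or more (y axis, number of genes in brackets) in the 4 comparisons, with a black line at the median of each list. In WT the mitosis genes all lie below 0 around a median of -0.26, while the median of the 6 ring subunits is 0.06 (0.01 after rescaling to 1000000, 0.11 with median ratio scaling), and in LNCKO the ring subunits all lie below 0 around a median of -0.13.

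The genes with the profile most like that of the ring were sought among 2477 genes outside all lists whose mean FPKM was 5 or more. Likeness was the Euclidean distance over the 4 libraries between the centred log2 profile of a gene and the mean profile of the 6 subunits. The 5 nearest were Tcp1 at 0.0133, Cct3 at 0.0192, Ube2m at 0.0217, Bet1l at 0.0257 and Prrc2a at 0.0277. Tcp1 and Cct3 encode subunits of the cytosolic chaperonin that folds actin and tubulin, and Ube2m encodes the conjugating enzyme of NEDD8. Tcp1 had an FPKM of 23.1, 23.9, 25.1 and 23.3, so that LNCKO control was highest and WT butyrate second, as in Mcm6 and Mcm7. Among the subunits themselves, Mcm7 (0.0254), Mcm6 (0.0258) and Mcm3 (0.0266) were near their mean, and Mcm4 (0.0799), Mcm2 (0.0978) and Mcm5 (0.103) were farther from it.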

How the data were processed

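RNA of 4 bone marrow-derived macrophage cultures was sequenced, 1 library for each genotype and treatment, and groups were taken from the sample labels. The authors deposited FPKM values per gene and library. The submitters' processing notes name STAR 2.5.0c, Picard 1.126, bedtools 2.17.0, HTSeq 0.6.0 and the builds GRCm38 and mm10. The methods and the labels name different extraction and library kits, and the files do not settle which was used.

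With spans from the GENCODE M21 annotation of GRCm38, 98.5% of 16342 matched genes gave whole fragments in all 4 libraries (within 0.02 of a fragment or 1e-06 of the count, whichever was larger), against 6.99% with exon lengths. FPKM ratios carry 95% Clopper-Pearson intervals conditional on the summed fragments. Changes are log2 ratios of FPKM with a pseudocount of 1, over the 6809 genes whose mean FPKM was 1 or more. Dividing by the whole span lowers the FPKM of genes with long introns in all libraries alike. No test was made. With 1 library per group the difference in response between genotypes leaves no residual degrees of freedom, and an additive fit of genotype and butyrate, which would leave 1, was not run.

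Named genes are the 10 members, in each further list up to 4 genes past 0.32 (log2) in any comparison or else its most abundant gene, and the 5 genes nearest to the ring profile. Cell type markers are given through their lists. Klf1, Mir25, Mir93, Ap4m1, Cops6, Ufd1, Mcm9, Rrm2b, Pold2, E2f1 and the promoter windows were named after values were seen. The members and lists were chosen with earlier results of these data known. Recovery of totals and changes was tested on simulated data. Computations ran in Python 3.11.15 with pandas 2.3.3, numpy 2.4.6, scipy 1.17.1 and, for figures, matplotlib 3.10.9.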

Additional observations from a re-analysis of the deposited data

Results flagged for a closer look

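In 4 of the 10 members the butyrate change went one way in WT and the other way in LNCKO, with the counting intervals of both changes clear of 1. Of the 6718 tested genes with whole fragments, 6.16% were higher in WT and lower in LNCKO in this way. The change in WT minus that in LNCKO, on the log2 scale of FPKM + 1, was 0.3122 for Mcm2, 0.2088 for Mcm6, 0.1762 for Mcm7 and 0.1738 for Mcm3. All 4 were higher with butyrate in WT and lower in LNCKO, except that Mcm3 was not higher in WT after rescaling to 1000000 per library. With that rescaling the log2 change in WT was 0.1376 for Mcm2, 0.0313 for Mcm6 and 0.0228 for Mcm7. The counting intervals were computed as deposited only. With 1 library per group the difference was not tested.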

How the results depend on the processing

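Each change was recomputed with a pseudocount of 0.1 or none, with fragments per 1000000, with libraries scaled by their median ratio and with FPKM rescaled to 1000000 per library. The medians over the members moved in none of 25 cases by more than 0.1 on the log2 scale. A gene value was counted as moved by another rule, when it shifted by more than its own counting interval reaches to either side. Such a move can be smaller than 0.1. Of 250 gene values 220 stayed the same by this rule and 30 moved, and the largest shift was 0.1587. Signs of 5 values changed, none larger than 0.0489 as reported. After rescaling to 1000000, 3 members instead of 5 were higher with butyrate in WT, 1 member, Rrm2, was lower there by more than the limit of 0.32 (log2), and 1, again Rrm2, was higher in LNCKO under butyrate by more than it. The highest over the lowest level of the ring subunits in WT control was 2.2424 with the longest coding transcript. The cause of these moves was not tested, apart from the other lengths and scales used. With a mean FPKM of at least 5, 8 members were left. Intervals cover counting error, which is small beside differences that separate cultures could show. No paired analysis was possible because each group holds 1 library and the library names share only 1 number, the same in all 4, where a block needs at least 2.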
